A study of Mus musculus with 9 samples.

Results

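Perilipins and fatty acid fuel genes were compared in the brains of wild-type and Huntington's disease model mice. The set is 9 of the 21853 protein-coding genes in the tables: the lipid droplet coat genes Plin2, Plin3, Plin4 and Plin5, and Angptl4, Cpt1a, Pdk4, Acot1 and Ppargc1a. Plin2, Plin4, Plin5, Angptl4, Cpt1a, Pdk4 and Acot1 are known targets of the PPAR receptors, and Ppargc1a encodes a coactivator of them. They were chosen by name after their normalised counts in these 9 libraries were known, so the values are a description: no test is given for them and nothing is supported by them. All 9 passed the filter on low values.

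Lipid droplets store neutral fat behind a coat of perilipins, which control the access of lipases. Fatty acids released from droplets or from lipoproteins are ligands of the PPAR nuclear receptors, and PPARs with the coactivator PGC-1alpha raise the transcription of genes that carry fatty acids into mitochondria, spare pyruvate and coat droplets. In brain this machinery is known mostly from astrocytes and other glia. PGC-1alpha is also known in neurons, where its loss has been studied in Huntington's disease models.

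Poly(A) RNA was sequenced in 9 libraries, 3 per group. The WT group is wild-type mice given pAAV-GFAP(pro)-Control-mCherry, the HD group is N171-82Q mice given the same virus, and the WNT5B group is N171-82Q mice given pAAV-GFAP(pro)-WNT5B-P2A-mCherry. N171-82Q mice carry a transgene for an amino-terminal fragment of mutant huntingtin under a prion protein promoter, which is not restricted to the striatum or to 1 cell type. The GFAP promoter directs the viral cargo mainly to astrocytes, and all groups, controls included, received a virus that makes mCherry. The tissue is labelled brain, and the series text speaks of the striatum. The labels name neither the age and sex nor the animal of a library, so every p-value measures only the spread between these libraries, which may be technical.

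The values are normalised read counts, not divided by gene length. From the steps between low values, depth was 67.8 to 77.8 M reads for the WT libraries, 69.8 to 90.6 M for the HD libraries and 37.3 to 52.1 M for the WNT5B libraries. The WNT5B libraries stood apart. Their values summed to 79.9 to 83.8 M, against 54.6 to 55.8 M in the other 6, and 14291 to 14588 genes were above 0, against 17027 to 17349. The median SD of log2 values between replicates was 0.039 in WT, 0.033 in HD and 0.233 in WNT5B. The model used 1 variance per gene over all 9 libraries, so a gene has the same SE in each comparison. Each SE and p-value of HD minus WT therefore also holds the wider WNT5B spread, unless only the 6 WT and HD libraries were fitted. The chi-square per gene between the read counts of replicate pairs, about 1 for counting error alone, was 1.93 to 4.43 among WT libraries, 1.99 to 2.57 among HD libraries and 39.4 to 54.8 among WNT5B libraries, so no pair was treated as 1 library. The difference of WNT5B from HD also followed transcript length, with a median log2 difference of 1.06 for the shortest of 5 length classes of transcripts and -1.03 for the longest, against 0.07 and -0.01 for HD minus WT. The part of depth and transcript length in the WNT5B differences was not tested beyond the alternatives printed beside them.

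The gene named in the virus, Wnt5b, read 74.6, 63.8 and 57.7 in the WT libraries, 63.8, 44.2 and 49.3 in HD and 184, 22.5 and 212 in WNT5B. The second WNT5B library thus held less Wnt5b than any other library, and the groups overlapped (log2 difference from HD 0.88, SE 0.73, limma adjusted p = 0.30). No source used here gives the species or sequence of the viral WNT5B, so these reads may not contain it, and Wnt5b does not check the labels. The 9 genes' differences of WNT5B from HD are therefore also given without that library. Of 38 other genes named in that comparison, 36 kept their direction and their side of the threshold without it, and Wnt5b and Pparg did not. Endogenous Htt averaged 12609 in WT and 13667 in HD (log2 difference 0.12, SE 0.05, adjusted p = 0.078, and 1.2e-06 with only the 6 WT and HD libraries in the fit). Striatal projection neuron markers, 8 of 8 measured, summed to between 289555 and 347145 in every library, so striatal markers were present in all groups.

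Promoter sequence is shown for 4 members that had the widest or the most divided differences in the data below. Each stretch is from RefSeq (GRCm38.p6), 5′ to 3′ on the gene's strand, and ends before the first base of the gene in GENCODE M21. The Plin4 stretch is chr17:56109804-56110032 on the minus strand, Plin5 is chr17:56117597-56117798 on the minus strand, Pdk4 is chr6:5496310-5496528 on the minus strand, and Acot1 is chr12:84009252-84009489 on the plus strand. Capitals mark the PPAR and nuclear receptor motif AGGTCA or the glucocorticoid receptor motif AGAACA on either strand, so that a minus-strand match reads as its reverse complement.
Plin4: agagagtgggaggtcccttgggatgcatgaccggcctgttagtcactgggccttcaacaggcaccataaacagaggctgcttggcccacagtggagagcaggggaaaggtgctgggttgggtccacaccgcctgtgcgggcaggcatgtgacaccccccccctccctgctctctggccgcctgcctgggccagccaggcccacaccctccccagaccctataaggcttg
Plin5: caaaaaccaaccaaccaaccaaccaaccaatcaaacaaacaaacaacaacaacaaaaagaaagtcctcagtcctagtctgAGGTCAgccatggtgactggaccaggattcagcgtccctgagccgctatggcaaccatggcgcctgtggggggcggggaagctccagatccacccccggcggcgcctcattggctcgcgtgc
Pdk4: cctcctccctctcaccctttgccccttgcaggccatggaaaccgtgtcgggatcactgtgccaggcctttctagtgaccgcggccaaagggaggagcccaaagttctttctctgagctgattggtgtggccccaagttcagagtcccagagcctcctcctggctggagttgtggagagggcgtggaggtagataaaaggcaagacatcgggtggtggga
Acot1: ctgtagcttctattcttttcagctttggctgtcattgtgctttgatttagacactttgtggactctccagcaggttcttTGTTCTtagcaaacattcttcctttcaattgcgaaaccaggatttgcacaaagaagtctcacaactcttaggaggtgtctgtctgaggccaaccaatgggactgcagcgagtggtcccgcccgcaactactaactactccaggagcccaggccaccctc

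Promoters of 8 of the 9 genes were matched by symbol, and Plin5 has 2. In the 250 bases before the start, AGGTCA occurred in 3 of these 9 promoters (Plin2, Plin5 and Cpt1a), and in 14.02% of all 32851 promoters of that length. AGAACA occurred in 1, that of Acot1, against 16.1% of all. The direct repeat of AGGTCA with any 1 base between the copies, which PPAR and RXR bind together, occurred in 0 of them and in 0.0335% of all promoters. The ERR element TCAAGGTCA, which contains AGGTCA, was in 0 (0.387% of all), the E-box CACGTG in 0 (6.02% of all), and the cAMP element core TGACG in 1, that of Ppargc1a (17.8% of all). Matches are letters on either strand, not binding sites.

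Among the coat genes, Plin4 showed the widest difference between HD and WT. Plin4 encodes a perilipin with a long repeated helix, known best from adipocytes and muscle. Its normalised counts were 490, 478 and 437 in the WT libraries, 8931, 9256 and 8895 in HD and 7013, 7668 and 8228 in WNT5B. Every HD library lay far above every WT library, and the WNT5B libraries lay below HD and far above WT. The group means were 468 ± 27.7 (SD, n = 3) in WT, 9027 ± 199 in HD and 7637 ± 608 in WNT5B, so HD was 19.3-fold above WT (log2 difference 4.26, SE 0.07). Of the 15411 genes tested, Plin4 had the 20th highest log2 difference between HD and WT. The WNT5B minus HD difference of -0.24 sat at the median of all genes, -0.23, and it became 0.09 with the transcript length and GC trend removed.

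Plin5 encodes the perilipin that tethers droplets to mitochondria in oxidative tissues. Its counts were 23.9, 25.03 and 18.2 in WT, 176, 158 and 155 in HD and 798, 943 and 967 in WNT5B. The 3 groups did not overlap and formed 2 steps upward. The WT values rest on 25 to 34 reads per library. The means were 22.4 ± 3.64, 163 ± 11.5 and 903 ± 91.6, so HD was 7.28-fold above WT (log2 difference 2.72, SE 0.20) and WNT5B was 5.54-fold above HD (2.44, SE 0.20). Across the alternatives the WNT5B minus HD difference ranged from 1.76 to 2.53. Of the 15411 genes tested, Plin5 had the 96th highest difference for HD minus WT and the 1086th highest for WNT5B minus HD. Its longest transcript, 1986 bases, is in the shortest length class, whose median WNT5B minus HD difference was 1.06.

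Plin3, a perilipin made in most tissues that moves from cytosol to new droplets, was at 1208, 1130 and 1186 in WT, 855, 927 and 880 in HD and 2701, 1510 and 2513 in WNT5B. The HD libraries were the lowest and the WNT5B libraries the highest, with no overlap. The log2 difference was -0.40 (SE 0.19) for HD minus WT and 1.29 (SE 0.19) for WNT5B minus HD. Plin2, the droplet coat of most non-adipose cells and the usual marker of droplet load, read 308, 366 and 336 in WT, 285, 330 and 322 in HD and 220.006, 236 and 420.3 in WNT5B. It was the only 1 of the 9 genes whose groups overlapped in every comparison, with log2 differences of -0.11 (SE 0.25) for HD minus WT and -0.15 (SE 0.25) for WNT5B minus HD, the second ranging from -0.70 with equal library totals to 0.02 without the first WNT5B library. Plin1, the adipocyte perilipin, had values of 0 to 8.58 and did not pass the filter.

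**Figure D1:**
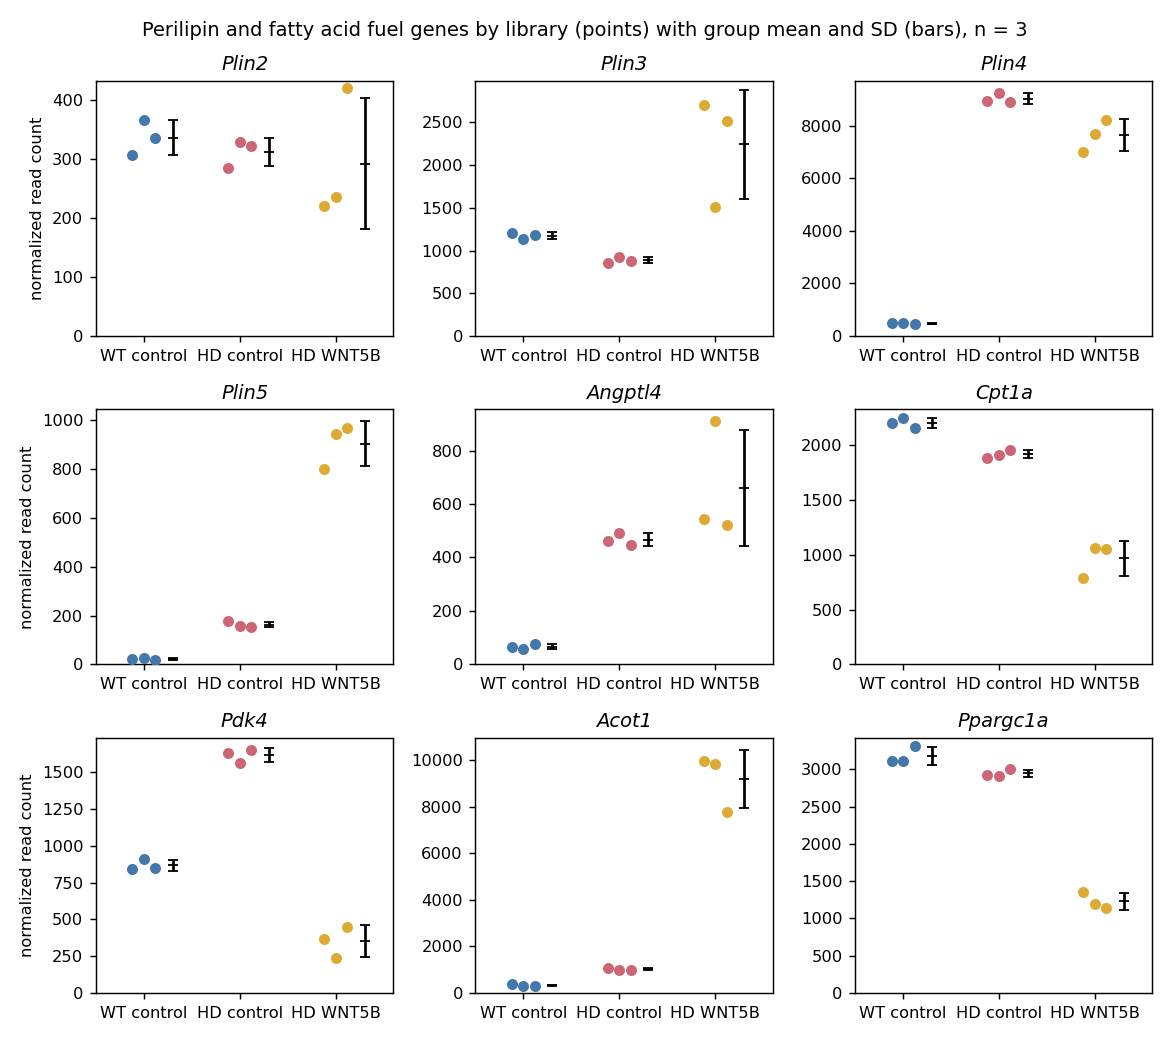
Normalised read count (vertical axes, linear from 0) of the 9 genes in each library (points) with the group mean and SD (bars), for WT control, HD control and HD WNT5B, n = 3 each. Plin4 lies between 437 and 490 in WT and at 7013 or more in all 6 N171-82Q libraries, Acot1 and Plin5 step up over both groups, Pdk4 is highest in HD and Plin2 overlaps throughout.

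Set on a per-length scale, the makeup of the perilipin transcripts differed between the groups. Counts were divided by the kilobases of each gene's longest transcript, and the 5 perilipins summed to 594 ± 5.87 in WT, 2060.1 ± 49.4 in HD and 2552 ± 251 in WNT5B. Plin4 made up 13.7 ± 0.752% of that sum in WT, 76.1 ± 0.403% in HD and 52.1 ± 4.07% in WNT5B. Plin3 was the leading perilipin in WT, at 54.2%, and made up 11.8% in HD and 24.0% in WNT5B. Plin2 made up 30.0%, 8.02% and 5.97%, and Plin5 1.90%, 3.99% and 17.9%. Division by length does not remove the length trend of WNT5B minus HD. Plin4, at 5756 bases, is in the longest length class and Plin5, at 1986, in the shortest. With the length and GC trend removed, WNT5B minus HD moved from -0.24 to 0.09 for Plin4 and from 2.44 to 1.76 for Plin5. The part of the trend in the WNT5B shares was not tested. Within the Plin4 transcript, 17.4% of 50-base windows are repeated inside the transcript itself and 0 occur in another gene, so how reads in its repeats were counted bears on its level, and this was not tested.

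**Figure D2:**
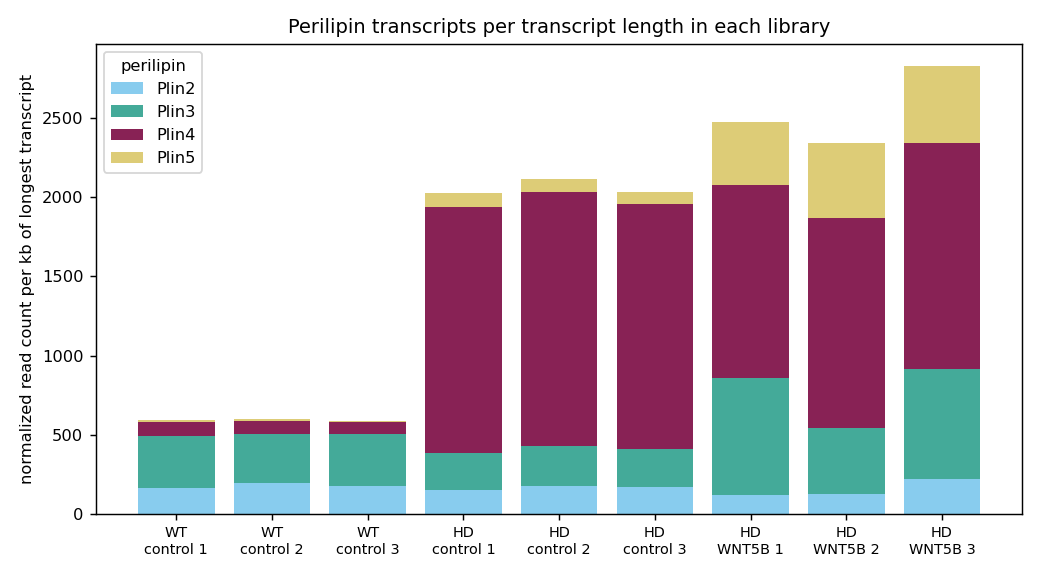
Stacked bars of the perilipin transcripts in each of the 9 libraries, as normalised read count per kilobase of the longest transcript (vertical axis, from 0), coloured by perilipin. Plin4 takes 13.7% of the stack in WT, 76.1% in HD and 52.1% in WNT5B on average. The length trend of the WNT5B libraries is not removed.

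The secreted lipase inhibitor of the set was also higher in HD. Angptl4 is a PPAR target that blocks lipoprotein lipase, and its counts were 66.2, 57.3 and 76.6 in WT, 460.0, 493 and 447 in HD and 545, 911 and 523 in WNT5B. The HD libraries all lay above WT, and the WNT5B libraries lay above HD, with the second WNT5B library well above the other two. The means were 66.7 ± 9.66, 467 ± 23.5 and 659.8 ± 218, a 6.99-fold difference between HD and WT (log2 difference 2.76, SE 0.24). For WNT5B minus HD the log2 difference was 0.45 (SE 0.24), 0.20 without the second WNT5B library and -0.10 with all libraries scaled to equal totals.

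Of the fuel genes, Pdk4 and Acot1 were both higher in HD than in WT, and in WNT5B Pdk4 was lower and Acot1 higher than in HD. Pdk4 encodes the kinase that shuts down pyruvate dehydrogenase and so spares pyruvate when fat is burned. It read 843, 908 and 849 in WT, 1632, 1566 and 1653 in HD and 367, 236 and 450.3 in WNT5B. HD libraries were the highest and WNT5B libraries the lowest, with no overlap, at means of 867 ± 35.8, 1617 ± 45.3 and 351 ± 108. HD was 1.87-fold above WT (log2 difference 0.90, SE 0.21), and WNT5B was 4.61-fold below HD (-2.24, SE 0.21). The WNT5B minus HD difference was -1.59 with the length and GC trend removed and -1.98 without the second WNT5B library. In the main fit it was the 1850th lowest of the 15411 genes tested.

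Acot1 encodes a cytosolic thioesterase that releases fatty acids from their coenzyme A esters. Its counts were 362, 312 and 305 in WT, 1067, 987 and 997 in HD and 9977, 9850 and 7761 in WNT5B. As for Plin5, the 3 groups did not overlap and stood in 2 steps, at means of 327 ± 31.2, 1017 ± 44.1 and 9196 ± 1245. HD was 3.11-fold above WT (log2 difference 1.63, SE 0.11) and WNT5B 9.04-fold above HD (3.16, SE 0.11). Of the 15411 genes tested, Acot1 had the 384th highest difference for HD minus WT and the 502nd highest for WNT5B minus HD. Of the 50-base windows of its longest transcript, 18.8% also occur in Acot2, Acot3 or Acot5, so the split of reads among these genes is uncertain. Acot2, its mitochondrial relative next door, averaged 242, 262 and 411, with log2 differences of 0.11 (SE 0.19, limma adjusted p = 0.67) for HD minus WT and 0.62 (SE 0.19, adjusted p = 0.015) for WNT5B minus HD. The second call was lost under 5 alternatives, among them equal totals (0.072, adjusted p = 0.72). Acot3 averaged 48.9, 36.1 and 16.8 and was not called in either comparison, but for WNT5B minus HD it was with equal totals (-2.18, adjusted p = 0.035) and without the third WNT5B library (-2.91, adjusted p = 8.8e-04).

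Cpt1a, the liver-type carnitine palmitoyltransferase that commits long-chain fatty acids to the mitochondrion, was at 2199, 2250 and 2153 in WT, 1880, 1913 and 1952 in HD and 785, 1060.1 and 1055 in WNT5B. Each step was downward without overlap, at log2 differences of -0.20 (SE 0.11) and -0.997 (SE 0.11). Ppargc1a, the gene of PGC-1alpha, read 3119, 3109 and 3312 in WT, 2928, 2916 and 3006 in HD and 1349, 1199.9 and 1137 in WNT5B. It was also lowest in WNT5B, with log2 differences of -0.11 (SE 0.07) for HD minus WT and -1.27 (SE 0.07) for WNT5B minus HD. Ppargc1a has the longest transcript of the set, 6464 bases, and with the length and GC trend removed its WNT5B minus HD difference was -0.04, while that of Cpt1a was -0.55. In bulk tissue, fewer cells of a type and less RNA per cell cannot be told apart for any of these genes.

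**Figure D3:**
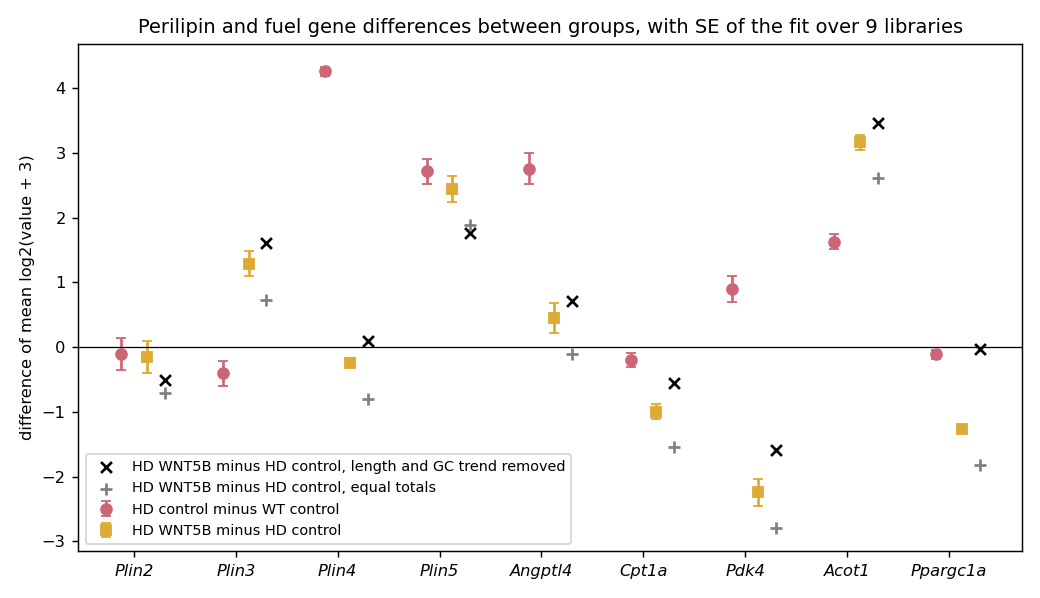
Difference of mean log2(value + 3) between groups for the 9 genes (vertical axis), with SE of the fit as bars, for HD minus WT and HD WNT5B minus HD, crosses for the second with the transcript length and GC trend removed and plus signs for the second with equal library totals. Plin4 stands at 4.26 in the first comparison, Acot1 at 3.16 and Pdk4 at -2.24 in the second, while Ppargc1a moves from -1.27 to -0.04, Plin4 from -0.24 to 0.09 and Angptl4 from 0.45 to -0.10 under 1 of the 2 alternatives.

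By mean alone, 5 of the 9 genes were higher and 4 lower in HD than in WT, where 51.6% of all tested genes had a higher and 48.4% a lower mean. Against HD, WNT5B had a higher mean for 4 and a lower mean for 5, and against WT for 5 and 4, where 44.5% of all genes were higher and 55.5% lower in both comparisons. Without overlap between libraries, 5 genes were higher in HD than in WT (Plin4, Plin5, Angptl4, Pdk4 and Acot1), 3 were lower (Plin3, Cpt1a and Ppargc1a) and 1 overlapped. In the whole table, 43.6% of genes were higher and 40.4% lower in HD without overlap, 84.0% in all, so a lack of overlap sets no gene of the set apart. The median log2 difference over the 9 genes was 0.90, beside 0.02 over all genes tested. Against HD, 4 genes were higher in WNT5B without overlap (Plin3, Plin5, Angptl4 and Acot1) and 4 lower (Plin4, Cpt1a, Pdk4 and Ppargc1a), where 36.2% and 42.5% of all genes were, 78.7% in all. Here the median over the set was -0.15, beside -0.23. Both comparisons use the HD libraries, so a value high or low there by error enters both with opposite sign. Against WT directly, WNT5B was higher for Plin3, Plin4, Plin5, Angptl4 and Acot1 and lower for Cpt1a, Pdk4 and Ppargc1a without overlap, where 36.2% of all genes were higher and 43.2% lower, 79.4% in all. The log2 differences of that comparison ran from -1.37 for Ppargc1a to 5.16 for Plin5.

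With all libraries scaled to equal totals, the median of all genes for WNT5B minus HD moved from -0.23 to -0.77, and each of the 9 genes moved down with it. The differences were then 1.89 for Plin5, 2.61 for Acot1, 0.74 for Plin3, -0.10 for Angptl4, -0.70 for Plin2, -0.80 for Plin4, -1.55 for Cpt1a, -2.79 for Pdk4 and -1.82 for Ppargc1a. Without the second WNT5B library they were 1.55 for Plin3, 2.41 for Plin5, 3.11 for Acot1, 0.20 for Angptl4, -0.03 for Plin2, -0.25 for Plin4, -1.07 for Cpt1a, -1.25 for Ppargc1a and -1.98 for Pdk4.

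Per kilobase of transcript, the order of the genes changed between groups. In WT, Cpt1a (510 ± 11.2) and Ppargc1a (492 ± 17.7) led and did not differ beyond their spread. Plin3 followed at 322, then Pdk4 at 249, Plin2 at 178, Acot1 at 125, Plin4 at 81.4, Angptl4 at 20.2 and Plin5 at 11.3. In HD, Plin4 led at 1568, and Pdk4 (464 ± 13.0), Ppargc1a (456 ± 7.53) and Cpt1a (444 ± 8.31) followed within or near each other's spread, ahead of Acot1 at 389. In WNT5B, Acot1 led at 3519, then Plin4 at 1327 and Plin3 at 615, and Pdk4 was last at 101. The length trend of the WNT5B libraries is not removed on this scale.

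The coat genes Plin3, Plin4 and Plin5 lie on chromosome 17 of mm10, and Plin4 (56100591 to 56109803) and Plin5 (56111601 to 56117596) are separated by 1797 bases. Plin3 (56277476 to 56292873) begins 159879 bases past Plin5, and all 3 are on the minus strand. Within 100 kb on either side of this block, a window chosen after the values were seen, 15 other genes were tested. Between HD and WT, 6 of these rose and 4 fell (median log2 difference 0.18), where 24.5% of all tested genes rose and 20.7% fell, 45.1% in all. In WNT5B against HD, 7 rose and 4 fell (median 0.27), where 35.8% of all tested genes rose and 41.7% fell, 77.5% in all. The gene next to Plin5 on its other side is Lrg1, which encodes a secreted leucine-rich glycoprotein and was singled out after its values were seen. Lrg1 read 4.93, 7.27 and 5.11 in WT, 136, 154 and 192 in HD and 224, 77.1 and 107 in WNT5B. Lrg1 is among the 6 that rose in HD (log2 difference 4.22, SE 0.40). Its WT values were all below 10, so it passed the filter only through the other groups, and its call supports nothing. The size of that difference is set partly by the added 3. For Lrg1, WNT5B minus HD was -0.36 (limma adjusted p = 0.42), called without the first WNT5B library (-0.79, adjusted p = 0.024) and with the length and GC trend removed (-1.55, adjusted p = 0.0074). Hdgfl2, next to Plin4 on the opposite strand, shares 0.294% of the Plin4 exon bases and had a log2 difference of 0.35 (adjusted p = 0.0030).

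**Figure D4:**
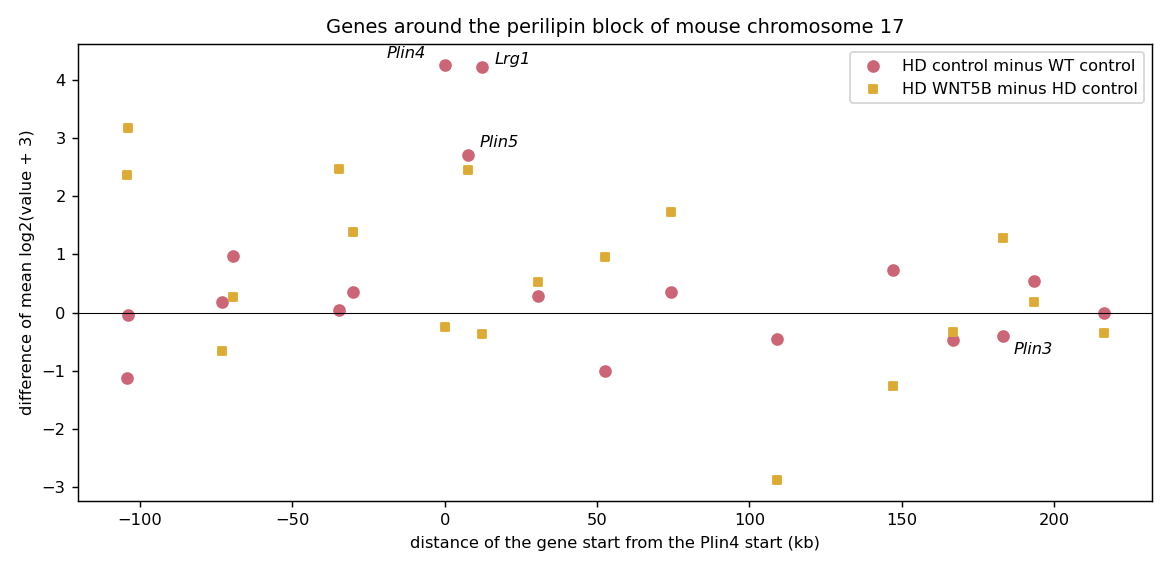
Difference of mean log2(value + 3) for the tested genes within 100 kb of the perilipin block, against the distance of each gene's start from the Plin4 start in kilobases, circles for HD minus WT and squares for HD WNT5B minus HD. Plin4 (4.26), Lrg1 (4.22) and Plin5 (2.72) stand next to each other above the rest in HD minus WT. The Lrg1 difference rests on WT values of 4.93 to 7.27.

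Acot1 lies on chromosome 12 (84009490 to 84018371, plus strand) in a cluster of thioesterase genes. Of the 8 other tested genes within 100 kb, 1 rose in HD, Acot4 (log2 difference 1.09, adjusted p = 0.045), and 1 fell, Numb. The Acot4 call was lost under 9 alternatives, among them each single WT or HD library left out (adjusted p = 0.094 to 0.12). Between HD and WNT5B, Acot2 rose, Numb and Dnal1 fell, and the rest were not called. Over all tested genes, 45.1% were called in HD against WT and 77.5% in WNT5B against HD. Of the remaining members, Plin2 lies on chromosome 4 (86648386 to 86670060, minus strand), Ppargc1a on chromosome 5 (51454250 to 51567726, minus), Pdk4 on chromosome 6 (5483351 to 5496309, minus), Angptl4 on chromosome 17 (33773750 to 33781830, minus) and Cpt1a on chromosome 19 (3322334 to 3385733, plus).

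Genes whose profile lay nearest over the 9 libraries, by Euclidean distance of centred log2 values, were named for 3 members. For Plin4 these were Gabrr2 (distance 0.584), a GABA-C receptor subunit that averaged 50.5, 825 and 785, and Cdkn1a (0.852), the p21 cell cycle inhibitor, followed by Tex45, Wfikkn1 and Itih4. For Angptl4 they were Msr1 (0.774), a macrophage scavenger receptor, Sh2b2 and Pnpla2 (0.837), then Arrdc2. For Ppargc1a they were Hectd4 (0.141), Selenot, Dffa, Sparcl1 and Mrtfb. Of these genes, Tex45, Itih4 and Msr1 averaged only 8.67, 4.34 and 7.44 in WT, below the minimum value of the filter. Tex45, Itih4 and Msr1 passed the filter only through the other groups, and their distances are set partly by the added 3.

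Genes around these 9 were read from 9 lists, beside calls over all tested genes of 24.5% higher and 20.7% lower in HD and 35.8% higher and 41.7% lower in WNT5B against HD. In HD, 38.5 to 55.6% of a list's tested genes were called, near the 45.1% of all genes, except 100% of the glucocorticoid list. That list was drawn up with results of these samples known, so its 100% is not a result. In WNT5B, 53.8 to 93.8% were called, against 77.5% of all genes. A share near these is not a result about a list. Genes named from a list are mostly those with the smallest p, so their direction need not be that of the list. For most of them the WNT5B difference is given without its value under equal totals or with the length and GC trend removed.

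The nuclear receptors and coregulators that act with these targets were read from a list of 19 genes, all tested. In HD, 7 rose, 1 fell and 11 were not called at an adjusted p under 0.05 (median log2 difference 0.23), but 3 and 1 with upper-quartile scaling, 2 and 1 without WT library 3 or HD library 3, and 12 and 4 with only the 6 WT and HD libraries in the fit. The gene that fell was Rxrg, an RXR of striatal neurons, from 8469 ± 133 to 3282 ± 45.7 (log2 difference -1.37, SE 0.08, adjusted p = 5.9e-06). Nrip1, the corepressor RIP140, rose from 3034 ± 113 to 4247 ± 39.7 (0.49, SE 0.07, adjusted p = 4.7e-04), and Lpin1, a phosphatidate phosphatase and PGC-1alpha partner, rose by 0.32 (SE 0.09, adjusted p = 0.015, and 0.0502 without the third WT library). Among the receptors themselves no PPAR was called in HD: Ppara averaged 157 and 161 (adjusted p = 0.97), Ppard 1239 and 1171 (adjusted p = 0.82) and Pparg 43.0 and 73.2 (adjusted p = 0.67), but Pparg, whose WT and HD libraries did not overlap, rose by 0.73 with only the 6 libraries (adjusted p = 1.3e-04).

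With WNT5B, compared with HD, 7 of the 19 rose and 8 fell (median -0.59). Equal totals gave 3 and 10, the median was -0.019 without the second WNT5B library, and removal of the length and GC trend gave 7 and 5. Esrra, the ERR-alpha receptor through which PGC-1alpha acts on mitochondrial genes, rose from 3268 to 9076 (log2 difference 1.47, SE 0.05, adjusted p = 8.4e-09). Ppara fell, from 176, 159 and 148 in HD to 14.3, 16.1 and 0 in WNT5B (-4.04, SE 0.64, adjusted p = 3.9e-04), values that rest on few reads. Ppard fell by 0.99 (SE 0.24, adjusted p = 0.0043), and Pparg, at 80.5, 0 and 118 in WNT5B, was not called (-1.29, SE 1.203, adjusted p = 0.35), reading 0.40 without the second library. Nrip1 fell by 1.39 (adjusted p = 1.3e-07), a call that was lost with the length and GC trend removed (-0.18, adjusted p = 0.19).

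Other lipid droplet genes numbered 24, of which 20 were tested. In HD, 4 rose and 6 fell (median -0.25), or 8 and 11 with only the 6 WT and HD libraries, and the 10 of 20 called are a share close to the 45.1% of all genes. Pnpla2, the lipase ATGL that perilipins hold off the droplet, read 973, 1006 and 934 in WT, 4989, 5100.4 and 5015 in HD and 6741, 7373 and 6753 in WNT5B. It rose in HD (log2 difference 2.37, SE 0.05, adjusted p = 4.2e-08) and was called higher again in WNT5B (0.46, SE 0.05, adjusted p = 3.4e-05). The second difference was -0.09 with equal totals, below 0, and it was not called with the length and GC trend removed (0.14, adjusted p = 0.068). Dgat2, which makes triglyceride, rose in HD (0.84, adjusted p = 3.5e-06) and fell in WNT5B (-0.65, adjusted p = 1.9e-06), and Bscl2, the seipin of droplet budding, fell in HD (-0.45, adjusted p = 6.9e-05). In WNT5B, 10 rose and 6 fell (median 0.50), 16 of 20 and so close to the 77.5% of all genes, and equal totals gave 8 and 7 (median -0.06). Among those called were Bscl2 (3.20, adjusted p = 9.4e-11), Aup1 (2.55, adjusted p = 7.1e-10) and the droplet enzyme gene Hsd17b11 (2.03, adjusted p = 8.1e-09), each higher.

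The other PPAR targets numbered 28, with 21 tested, and 13 of the genes in these lists stand in 2 of them. In HD, 3 rose and 7 fell (median -0.16), but 3 and 3 without any 1 of the WT libraries or the second HD library, and 7 and 10 with only the 6 libraries. Hadha, a subunit of the mitochondrial trifunctional protein, fell from 3575 ± 59.9 to 2158 ± 43.5 (log2 difference -0.73, SE 0.04, adjusted p = 2.0e-06), and Acaa1a, a peroxisomal thiolase, fell by 1.21 (SE 0.09, adjusted p = 1.2e-05). Lpl, the lipase that Angptl4 inhibits, rose from 5505 ± 103 to 10769 ± 103 (0.97, SE 0.09, adjusted p = 5.2e-05). Of the same 21, 9 rose and 6 fell in WNT5B against HD (median 0.19), but 7 and 8 with equal totals (median -0.36). Hadha (1.78, adjusted p = 7.1e-10), Acaa1a (3.09, adjusted p = 4.2e-09) and Lpl (3.13, adjusted p = 5.0e-09) all rose, Lpl to 94907 ± 13336.

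Of 37 fatty acid oxidation enzymes, 36 were tested, and in HD 4 rose and 16 fell (median -0.20), or 8 and 26 with only the 6 libraries. Beside Hadha, the acyl-CoA synthetase gene Acsl6 fell from 14553 to 9116 (log2 difference -0.67, SE 0.05, adjusted p = 1.8e-05), and Decr1, a reductase for unsaturated acyl chains, fell from 1302 to 628 (-1.05, SE 0.09, adjusted p = 4.1e-05). Against HD, 15 rose and 17 fell in WNT5B (median -0.28), but equal totals gave 10 and 19 and removal of the length and GC trend 18 and 9. Etfb, an electron carrier subunit, rose from 1003 to 25524 (4.67, SE 0.05, adjusted p = 2.2e-11), and Cpt1c, the neuronal carnitine palmitoyltransferase relative, rose from 4799.6 to 31067 (2.69, SE 0.04, adjusted p = 1.9e-10). Cpt1a itself, described above, was lower in WNT5B.

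Of the 13 genes of the pyruvate dehydrogenase complex and its control, the step on which Pdk4 acts, 5 rose and 2 fell in HD (median 0.16), or 9 and 3 with only the 6 libraries. The subunits Dlat (log2 difference 0.48, adjusted p = 2.2e-05) and Dld (0.41, adjusted p = 9.5e-05) and the phosphatase Pdp1, which opposes the kinases (0.43, adjusted p = 2.4e-04), rose. In WNT5B, 3 rose and 8 fell (median -0.18), against 1 and 10 with equal totals and 5 and 5 with the length and GC trend removed. Mpc2, a mitochondrial pyruvate carrier, rose by 2.96 (adjusted p = 6.8e-10). Pdp1 fell by 1.41 (adjusted p = 2.7e-08), and Pdpr, a regulator of the phosphatase, fell from 3276 to 267 (-3.64, SE 0.18, adjusted p = 1.7e-07).

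The 13 other acyl-CoA thioesterases gave 3 higher and 2 lower in HD (median 0.06), and 0 or 1 higher and 2 lower with upper-quartile scaling, equal totals or any 1 WT or HD library left out. Acot7, abundant in neurons, fell from 6361 to 4450.5 (log2 difference -0.52, adjusted p = 1.4e-05), Acot8 fell by 0.67 (adjusted p = 0.0011), and Acot13 rose by 0.16 (adjusted p = 0.017), a call lost under 6 alternatives, among them upper-quartile scaling (0.10, adjusted p = 0.12). In WNT5B against HD, 5 rose and 2 fell (median -0.20), but 4 and 6 with equal totals and 5 and 5 without the second WNT5B library (median 0.12). Called higher were Acot13 (2.31, adjusted p = 5.3e-10), Acot7 (1.53, adjusted p = 1.9e-09) and Acot8 (2.87, adjusted p = 2.7e-08). Of 14 genes of the lipoprotein lipase system, 10 were tested, and 2 rose and 3 fell in HD (median -0.26), or 2 and 6 with only the 6 libraries. Apoc1, a lipase inhibitor of lipoproteins, rose from 23.8 to 87.4 (1.76, SE 0.18, adjusted p = 1.1e-04), and Lmf1, the chaperone of the lipase, fell by 0.78 (adjusted p = 1.8e-04). In WNT5B, 5 rose and 4 fell (median 0.65, or 0.05 with equal totals), among the first Angptl6 (3.43, adjusted p = 2.3e-08) and Lmf1 (1.92, adjusted p = 1.2e-07).

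Of 14 partners and targets of PGC-1alpha in neurons and mitochondria, 3 rose and 4 fell in HD (median -0.03). These were 1 and 4 with equal totals, upper-quartile or trimmed-mean scaling, a replicate block or most single WT or HD libraries left out, and 6 and 7 with only the 6 libraries. Pvalb, the calcium buffer of fast interneurons, fell from 1105 to 514 (log2 difference -1.10, SE 0.11, adjusted p = 7.8e-05), Inf2, a formin, fell by 0.37 (adjusted p = 3.9e-05), and Idh3a, of the citric acid cycle, rose by 0.25 (adjusted p = 3.8e-04). In WNT5B against HD, 5 rose and 5 fell (median -0.06), with equal totals 4 and 9. Atp5o, of ATP synthase (3.96, adjusted p = 2.0e-11), Sod2, the mitochondrial superoxide dismutase (2.97, adjusted p = 1.6e-09), and Pvalb (3.32, adjusted p = 1.2e-08) rose. Another entry with the symbol Atp5o did not pass the filter, and how reads were split between the entries was not tested.

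A list of 16 glucocorticoid-responsive genes was read beside these, since Angptl4, Pdk4 and Ppargc1a are also known to respond to glucocorticoids. It was drawn up with results of these samples known and is not independent evidence of a direction. All 16 rose in HD (median 1.56), with Fkbp5, a chaperone of the receptor, going from 2698 to 8228 (log2 difference 1.61, SE 0.04, adjusted p = 4.8e-08), Cdkn1a from 712 to 9141 (3.68, SE 0.09, adjusted p = 7.2e-08) and the clock gene Per1 rising by 1.39 (adjusted p = 6.1e-07). In WNT5B against HD, 6 rose and 9 fell (median -0.40). The genes with the smallest p were among the 6 that rose: Sult1a1 (3.08, adjusted p = 2.9e-09), Tsc22d3 (1.70, adjusted p = 8.5e-09) and Mt1 (2.18, adjusted p = 1.5e-08).

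**Figure D5:**
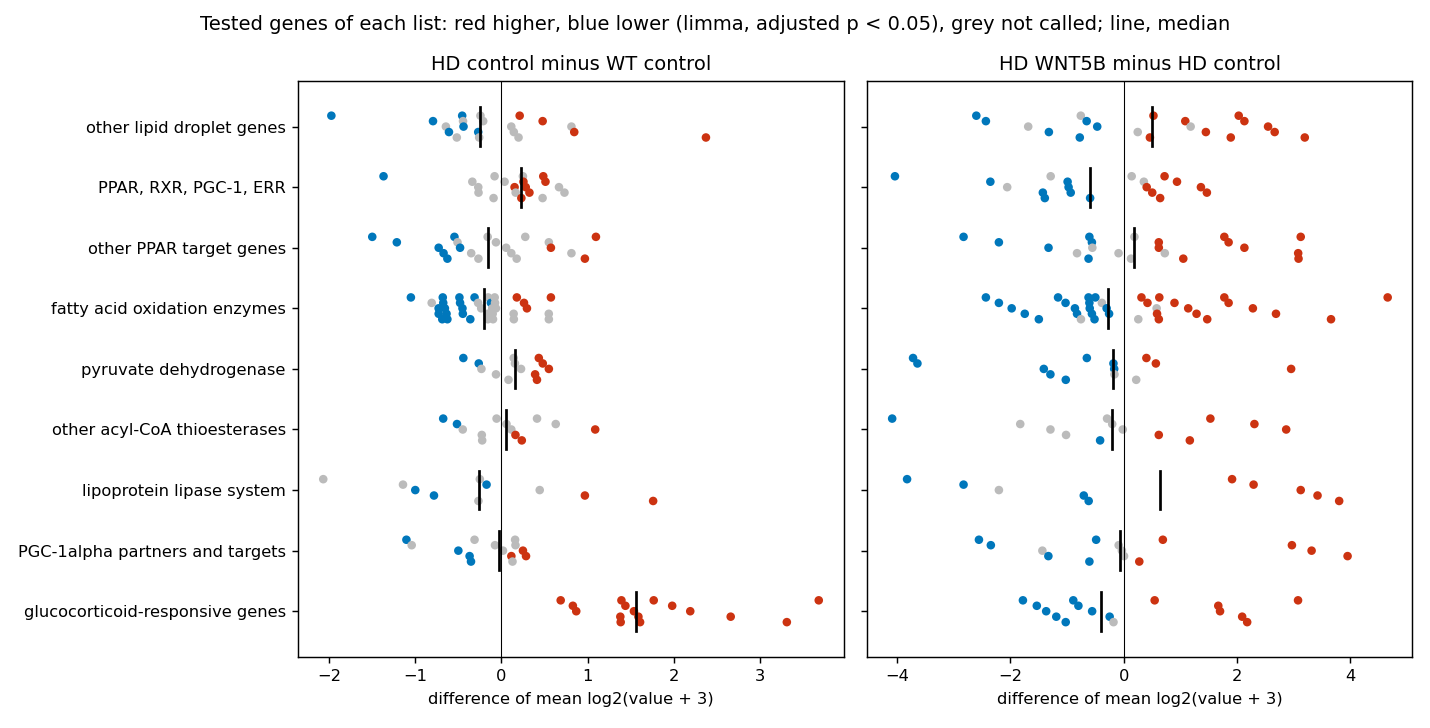
Difference of mean log2(value + 3) (horizontal axes) of the tested genes of the 9 lists, HD minus WT and HD WNT5B minus HD, 1 point per gene, red where the gene rose and blue where it fell in limma at an adjusted p under 0.05, grey where it was not called, with a line at the list's median. In HD all 16 genes of the glucocorticoid list, which was drawn up with results of these samples known, rose. In HD 16 of 36 fatty acid oxidation enzymes fell, while in WNT5B each list held genes called in both directions.

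Markers of cell types that hold perilipins or that may be in the tissue moved with the groups, and their part in the results was not tested. The 8 adipocyte markers summed to 55.6 to 61.3 in the WT libraries, 44.9 to 53.1 in the HD libraries and 343 to 608 in the WNT5B libraries, with Lep and Cfd at 0 in WT and HD and Adipoq, Lep, Cidec, Cfd and Adrb3 at 0 in WNT5B. The 8 skeletal muscle markers summed to 297 to 364, 248 to 259 and 1025 to 1574, with Mb, Myh4 and Tnnt3 at 0 in WNT5B. Sums of 8 markers per type were lower in HD than in WT for astrocytes (164200 to 165620 against 271921 to 276452) and microglia (13095 to 13178 against 28815 to 29141). In WNT5B, astrocyte markers summed to 90704 to 97758 and microglia markers to 44623 to 49787. Blood markers summed to 3229 to 3290, 1679 to 1838 and 11854 to 14689 in the same order, and choroid plexus and ependyma markers to 2562 to 2633, 2731 to 2835 and 15996 to 18435. Endothelium and pericyte markers summed to 20766 to 21204, 14552 to 14766 and 43559 to 51371, and fibroblast markers to 6309 to 6368, 4960 to 5071 and 1795 to 2651. Oligodendrocyte markers summed to 460920 to 465812, 332499 to 335059 and 746348 to 790782, and cortical neuron markers to 25400 to 26214, 11508 to 11618 and 19377 to 21539. A sum is carried by its most abundant genes. Of the 8 microglia markers, 8 fell in HD, and in WNT5B against HD 6 rose and 0 fell. Of the 8 endothelium and pericyte markers, 0 rose and 4 fell in HD, and in WNT5B against HD 5 rose and 3 fell. Astrocyte markers gave 2 higher and 4 lower in HD, and 3 higher and 4 lower in WNT5B against HD. Oligodendrocyte markers gave 0 higher and 7 lower in HD, and 5 and 3 in WNT5B against HD. Cortical neuron markers gave 0 and 7, then 2 and 2, and blood markers 3 and 5, then 6 and 0. Only 3 adipocyte and 5 skeletal muscle markers were tested. The adipocyte markers gave 0 and 0, then 1 and 1, and the muscle markers 1 and 0, then 3 and 1. Choroid plexus and ependyma markers gave 1 and 0, then 6 and 1, and fibroblast markers 0 and 3 in both. Striatal projection neuron markers gave 3 and 5, then 2 and 4. Against WT, WNT5B had 4 higher and 4 lower both for microglia and for endothelium and pericytes. Over all tested genes, 24.5% were called higher and 20.7% lower in HD, and 35.8% and 41.7% in WNT5B against HD. Against WT, 5526 of the 15411 were higher and 6486 lower in WNT5B. A share near these is not a result about a cell type.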

How the data were processed

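Poly(A) RNA libraries from 9 brain samples were made with a kit that does not keep strand, per the labels' protocols, and aligned with STAR to mm10, per the submitters' processing notes. No source used here names the counting program, annotation, normalizer or versions. The signal values deposited by the authors are, from the values themselves, mostly read counts scaled by 1 factor per library. Of the 1517 to 3541 low values checked per library, 97.7 to 98.5% were whole multiples of 1 step (tolerance 0.01). Values at or below 0.01 were left out of that check. Among these, Gm49366 in the Acot cluster read 8.78e-15 in WT library 2 and 3.55e-07 in WT library 3, which are not whole reads. All 21853 identifiers matched GENCODE M21.

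Log2(value + 3) was fitted in limma 3.58.1 (R 4.3.3) with a mean per group over 9 libraries (6 residual degrees of freedom) and a variance trend. The 15411 genes that reached 10 in 3 or more libraries were tested, and calls used Benjamini-Hochberg adjusted p under 0.05 over all of them. The added 3 understates changes of low genes. The procedure was tested on simulated data. Members and lists were chosen with earlier results of these data known. Named genes are the members, up to 3 genes per list with the smallest p in each of the first 2 comparisons, the 5 nearest profiles of 3 members, and the PPARs, Acot relatives, Wnt5b and Htt. Lrg1, Hdgfl2, Acot4, Numb and Dnal1 were named for their position, and marker genes at 0, after values were seen. A few genes that this rule names are not reported here. Replicate numbers are not said to pair the samples, so the main fit had no block. Alternatives covered scale, filter, added constant, weights, a replicate block, single libraries left out and, added after seeing the data, removal of a length and GC trend.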

Additional observations from a re-analysis of the deposited data

How the results depend on the processing

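Counts of called genes were 6957 for HD against WT, 11942 for WNT5B against HD and 12012 for WNT5B against WT. The first moved to 12908 with only the libraries of the 2 groups compared and to 12779 with a weight per group. Both settings leave each log2 difference as it was and change only the estimate of its spread, and the cause was not tested further. Leaving out single libraries gave 5512 to 8954, 11156 to 12587 and 11286 to 12676 genes, and 5 to 5, 4 to 5 and 5 to 5 members with a higher mean. Among calls for WNT5B against HD, 46.2% were higher, 32.02% with equal totals and 55.8% with the length and GC trend removed, an alternative chosen after seeing the data. For WNT5B against WT these shares were 46.0%, 31.7% and 55.2%.

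Same-numbered libraries of different groups correlated at -0.078 to 0.021 in their deviations, and differently numbered ones at -0.063 to 0.094. With 3 libraries per group, these values cannot decide whether the numbers pair the samples. With a replicate block the counts were 6402, 11782 and 11891.

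Of 540 alternative values for the members, 502 moved by less than 1 SD between replicates, 35 moved further and 3 reversed, all for WNT5B minus HD: Plin2 (-0.45 to 0.017 over single libraries left out, above 0 without WNT5B library 1), Plin4 (0.092 with the length and GC trend removed) and Angptl4 (-0.10 with equal totals). The 502 include values fixed in advance. A changed filter, only the 2 groups compared, a weight per group or a replicate block cannot change a difference of means. Nor can a library left out of the group not compared. Among other named genes, to which the same applies, 8 of 1637 reversed, for which the cause was not tested. Ppara in HD minus WT read -0.024 with upper-quartile scaling and -0.040 to 0.094 over single libraries left out, below 0 without WT library 2 or HD library 1. Pparg ranged from -2.27 to 0.40 for WNT5B minus HD and from -1.54 to 1.13 for WNT5B minus WT, above 0 without WNT5B library 2, Pnpla2 read -0.090 for WNT5B minus HD with equal totals, and Htt 0.29 and 0.49 with the length and GC trend removed. Wnt5b was called in WNT5B against HD without WNT5B library 2 (1.87, limma adjusted p = 1.1e-04), as it was not in the fit of all libraries.

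Planned count-model alternatives were not run, since the values are normalised decimals. Low reads limit Plin5, Angptl4 and Lrg1 in WT and Ppara in WNT5B, whose differences are set partly by the added constant. The profile distances of Tex45, Itih4 and Msr1, low in WT, are also set partly by that constant.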
